A study of Canis lupus familiaris with 6 samples.

Results

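Interferon-induced antiviral and immunoproteasome genes were followed in scribKD cells. These are MDCK-II cells, an epithelial line from dog kidney tubule, with a tetracycline-inducible short hairpin RNA against scribble, a scaffold protein of cell polarity. The genes chosen were CXCL10, MX1, MX2, PSMB8 and PSMB9. They were picked with the difference between cells given and not given tetracycline in view, so that difference is described here without a test. Of these 5 genes, 4 had probes, 7 in all, out of 1436 named genes on the array. The RefSeq gene table used for names paired no probe with MX2, which was therefore not analysed here; this does not show that the array lacks a probe for it.

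All cells carried the hairpin. Cells were given tetracycline at 5 µg/ml, starting 6 h after plating, or were left without it, and total RNA was extracted at 30, 45 and 60 h. Each of the 6 conditions was read on 1 one-colour Agilent dog array, with RNA mixed from 3 wells, so there were no replicate arrays. No array of cells without the hairpin was used here, so effects of tetracycline itself and of the hairpin cannot be told apart. The labels do not say whether the line was 1 clone. SCRIB had no named probe, and the depth of the knockdown was not analysed here.

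Interferons are secreted proteins that cells release on sensing viral nucleic acid or, for interferon gamma, that activated lymphocytes release. Through JAK kinases and STAT factors they switch on a shared set of genes. CXCL10 encodes a chemokine that attracts activated T cells through the receptor CXCR3, and MX1 and MX2 encode dynamin-like GTPases that block virus replication. PSMB8 and PSMB9 encode catalytic subunits that replace constitutive ones in the immunoproteasome, which cuts proteins into peptides for MHC class I.

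On each array 64.3% to 68.8% of spots were well above background, and none was saturated. Array profiles correlated at 0.986 to 0.991. The 30 h arrays lay on slide 1, the 60 h arrays on slide 2, and at 45 h the array with tetracycline lay on slide 2 and the array without it on slide 1. Of 10 kidney epithelial markers 6 had probes, and all 6 were well above background on all arrays, CDH1, KRT19 and TJP1 among them. Their summed level was 6.42 to 6.57 with tetracycline and 6.71 to 6.78 without it, on the log2 scale used below. Among markers of other cell types, MS4A1 of B cells and DCN of fibroblasts were well above background on no array. The other 4 of 5 fibroblast markers, COL1A1, COL1A2, PDGFRB and THY1, were so on all arrays, as were both endothelial markers, KDR and VWF. The leukocyte markers CD4 and CD8A were dim but above background on every array, and the summed leukocyte level ranged from -3.34 to -3.12 with tetracycline and from -3.36 to -3.14 without it. The fibroblast sum was 1.85 to 1.90 with tetracycline and 1.71 to 1.91 without it, and the endothelial sum 4.46 to 4.62 with tetracycline and 4.53 to 4.60 without it. Single markers could move apart from these sums: the difference of the collagen gene COL1A1 (with minus without tetracycline) was 0.26, 0.70 and 0.82 at 30, 45 and 60 h, and that of the claudin CLDN2 was 0.057, -0.38 and -1.64. The part of these markers in the results below was not tested.

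All 4 measured genes were lower with tetracycline at each of the 3 times, and each by more at every later time. At 45 h the arms lay on different slides, so arm and slide cannot be told apart there. Being lower at all 3 times was also the state of 21.8% of the 27581 features tested, and being lower by more at each later time that of 10.3%. Since the genes were chosen on this contrast, nothing is read from these counts. A level is the log2 of the background-corrected signal minus the array's 75th percentile, and a difference is the level with tetracycline minus the level without it. All 7 probes were well above background on all 6 arrays. Each array measured the summed RNA of its wells, so fewer expressing cells and less RNA per cell cannot be told apart.

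**Figure D1:**
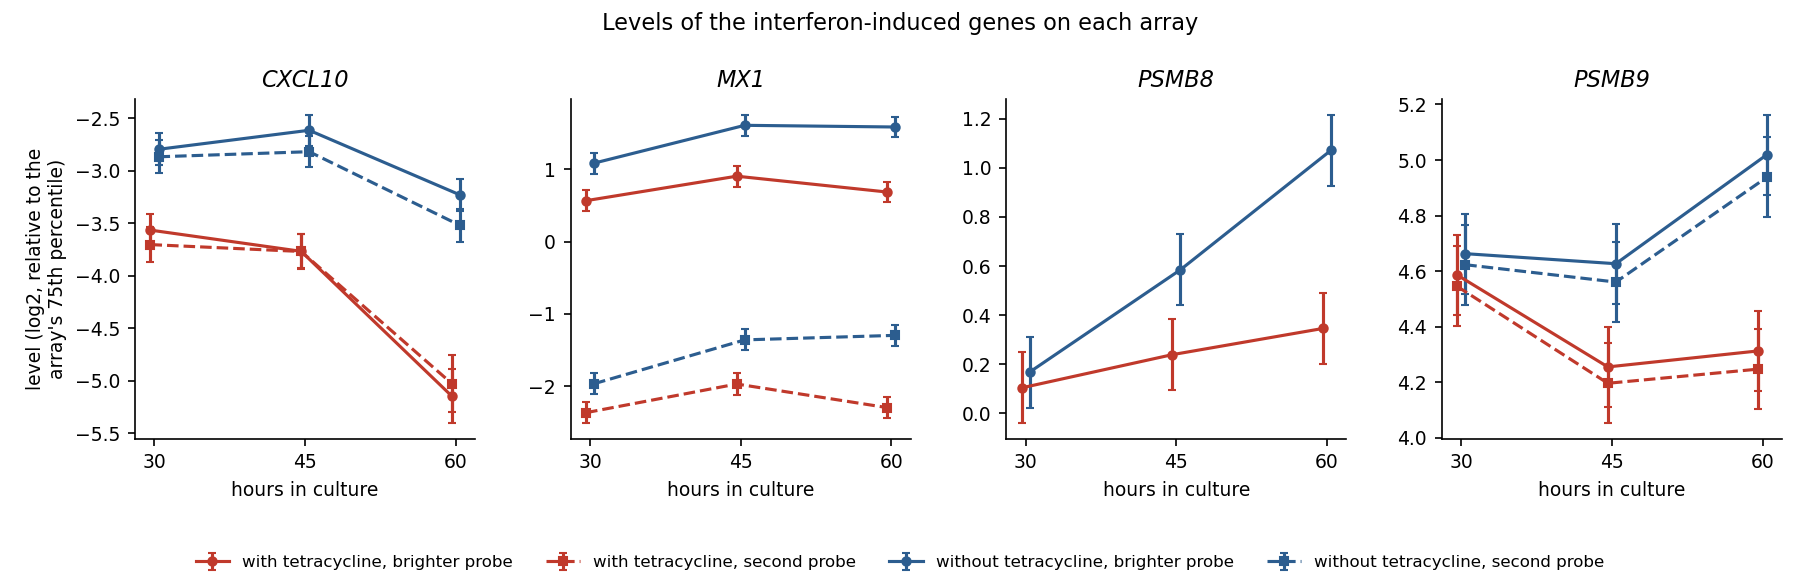
Level of each gene (log2, relative to the array's 75th percentile) against hours in culture, with tetracycline in red and without it in blue. Circles and solid lines are the brighter probe, squares and dashed lines the second one, and error bars are the scanner program's error of 1 spot. The red points lie below the blue ones at every time, with a narrow gap for PSMB8 and PSMB9 at 30 h.

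CXCL10 had the largest differences on the processed signal, though not with normexp. On its brighter probe the level with tetracycline was -3.56 at 30 h, -3.77 at 45 h and -5.15 at 60 h, against -2.79, -2.61 and -3.23 without it. The arms did not overlap, and the array with tetracycline at 60 h was the lowest of the 6. The differences were -0.77 at 30 h, -1.15 at 45 h and -1.92 at 60 h, which make CXCL10 1.71-, 2.23- and 3.78-fold lower, with a mean of -1.28 ± 0.58 (SD over 3 times). The second probe had levels of -3.70, -3.77 and -5.03 with tetracycline, against -2.87, -2.82 and -3.52 without it. Its differences had the same sign and were smaller at the later times, at -0.84, -0.95 and -1.51.

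CXCL10 was dim, and its signal on the brighter probe at 60 h was 16.4 intensity units with tetracycline and 62.8 without it. The scanner program put the error of the first of these at 18.0%, against 10% for each array of PSMB9. The difference at 60 h was 6.38 times the program's error of a difference, and at 30 h it was 3.53 times. Among the 11570 probes that were well above background on no array, the median difference was -0.28 at 30 h, 0.19 at 45 h and 0.28 at 60 h, so the faintest signals ran lower with tetracycline at 30 h, as CXCL10 did, and higher at the 2 later times. With normexp background correction at an offset of 50 intensity units and quantile normalization, the differences of CXCL10 were -0.43, -0.63 and -0.72 and their mean -0.59. This is the same direction at a smaller size, under 2-fold at every time, and smaller than that of MX1, which was then at -0.46, -0.65 and -0.88.

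MX1 was lower with tetracycline on both of its probes. On the brighter probe it stood at 0.56, 0.90 and 0.68 for 30, 45 and 60 h with tetracycline, against 1.08, 1.61 and 1.58 without it. The highest array with tetracycline lay below the lowest without it. The differences were -0.52, -0.70 and -0.90, or 1.43-, 1.63- and 1.86-fold lower, with a mean of -0.71 ± 0.19 (SD over 3 times). The second, dimmer probe had levels of -2.36, -1.97 and -2.29 with tetracycline, against -1.96, -1.36 and -1.30 without it. The arms barely parted on that probe, with -1.97 the highest with tetracycline and -1.96 the lowest without it. Its differences were -0.40, -0.61 and -0.999.

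PSMB8 encodes the immunoproteasome subunit that takes the place of PSMB5 and had 1 probe. Its level with tetracycline was 0.10, 0.24 and 0.35 at 30, 45 and 60 h, against 0.17, 0.58 and 1.07 without it. These ranges overlap, since the 30 h array without tetracycline lay below 2 of the arrays with it. The differences were -0.06, -0.35 and -0.73, and the one at 60 h, 1.65-fold lower, was 3.55 times the program's error, whereas at 30 h the ratio was 0.315 and at 45 h 1.69. The mean difference was -0.38 ± 0.33 (SD over 3 times).

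PSMB9, the subunit that takes the place of PSMB6, was bright, at 11534 to 15234 intensity units with tetracycline and 15184 to 19063 without it on its brighter probe. Its level was 4.59, 4.25 and 4.31 with tetracycline at 30, 45 and 60 h, against 4.66, 4.63 and 5.02 without it. The arms did not overlap, with a gap between 4.59 and 4.63. The differences were -0.08, -0.37 and -0.71, or 1.05-, 1.29- and 1.63-fold lower, with a mean of -0.38 ± 0.31 (SD over 3 times). The second probe gave -0.08, -0.36 and -0.69. At 30 h and 45 h the differences were 0.377 and 1.82 times the program's error, and at 60 h 3.46 times.

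How closely probes of a gene ran together can be described, although the second probes were among the values in view when the genes were chosen. Over 382 named genes with at least 2 probes well above background on all arrays, the mean differences of the 2 brightest probes lay a median of 0.045 apart, and 90% of the gaps were at most 0.196. The gap was 0.0072 for PSMB9, 0.037 for MX1 and 0.18 for CXCL10. At 60 h the CXCL10 probes were 0.41 apart, against a median of 0.081 over all such genes. Spots of 1 probe printed several times had a median SD of 0.072 on the log2 scale, over 50 such probes.

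None of the 4 genes was at least 2-fold lower at 30 h, where 1.71% of 28799 features were. On the brighter probes CXCL10 alone was past it at 45 h, against 3.05% of 30002 features, and at 60 h, against 4.6% of 29790. The second CXCL10 probe was 1.93-fold lower at 45 h, and with normexp CXCL10 was under 2-fold at every time. By place among the 27581 tested features, CXCL10 had 1.29% of features below it at 30 h, 0.925% at 45 h and 0.504% at 60 h. MX1 kept a similar place, with 2.75%, 3.16% and 3.66% below it. PSMB8 moved down the order, with 32.2% below it at 30 h, 10.9% at 45 h and 5.44% at 60 h, and PSMB9 likewise with 30.2%, 9.79% and 5.69%. The median difference over all features was 0.017, 0.026 and -0.0020 at the 3 times.

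**Figure D2:**
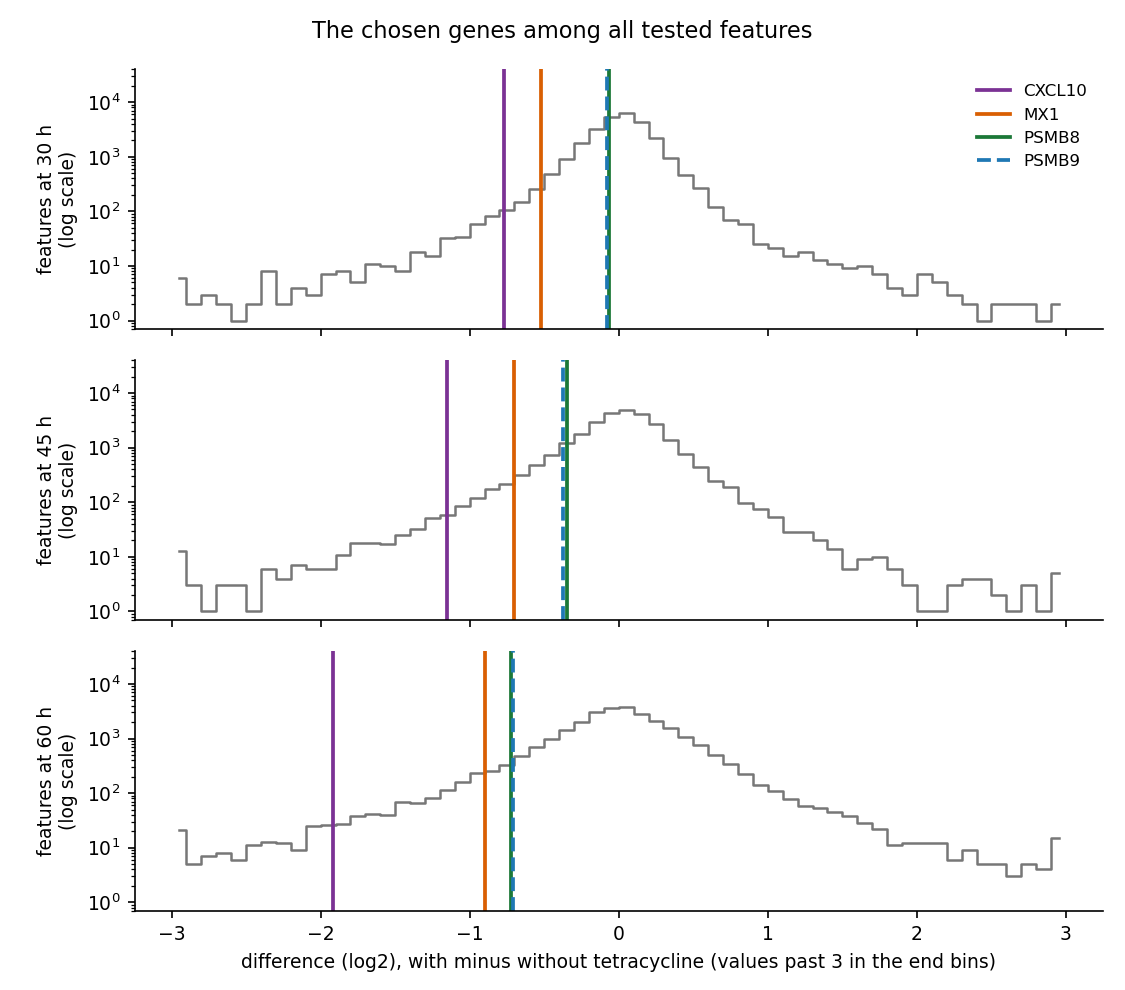
Number of tested features (log scale) by difference between the arms (log2, with minus without tetracycline) at 30, 45 and 60 h as grey outlines, with vertical lines at the 4 genes' brighter probes. At 30 h PSMB8 and PSMB9 lie at the centre of the 27581 features and by 60 h at -0.73 and -0.71, while CXCL10 lies in the lower tail at all 3 times.

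Within each arm the genes took different courses over time. From 30 h to 60 h the level of PSMB8 moved by 0.24 with tetracycline and by 0.90 without it. PSMB9 moved by -0.27 with tetracycline and by 0.36 without it, and MX1 by 0.12 with tetracycline and by 0.50 without it. All 3 thus ended higher relative to 30 h without tetracycline than with it.

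CXCL10 was the exception in that its level at 60 h was below that at 30 h in both arms, with changes of -1.58 with tetracycline and -0.43 without it. Most of that lay after 45 h, with steps from 45 to 60 h of -1.38 with tetracycline and -0.62 without it on the brighter probe, and -1.26 and -0.70 on the second. With 1 array for each time of an arm, these changes carry no test. The array without tetracycline at 30 h was the lowest of its arm for MX1 and PSMB8, and the array at 45 h for PSMB9.

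**Figure D3:**
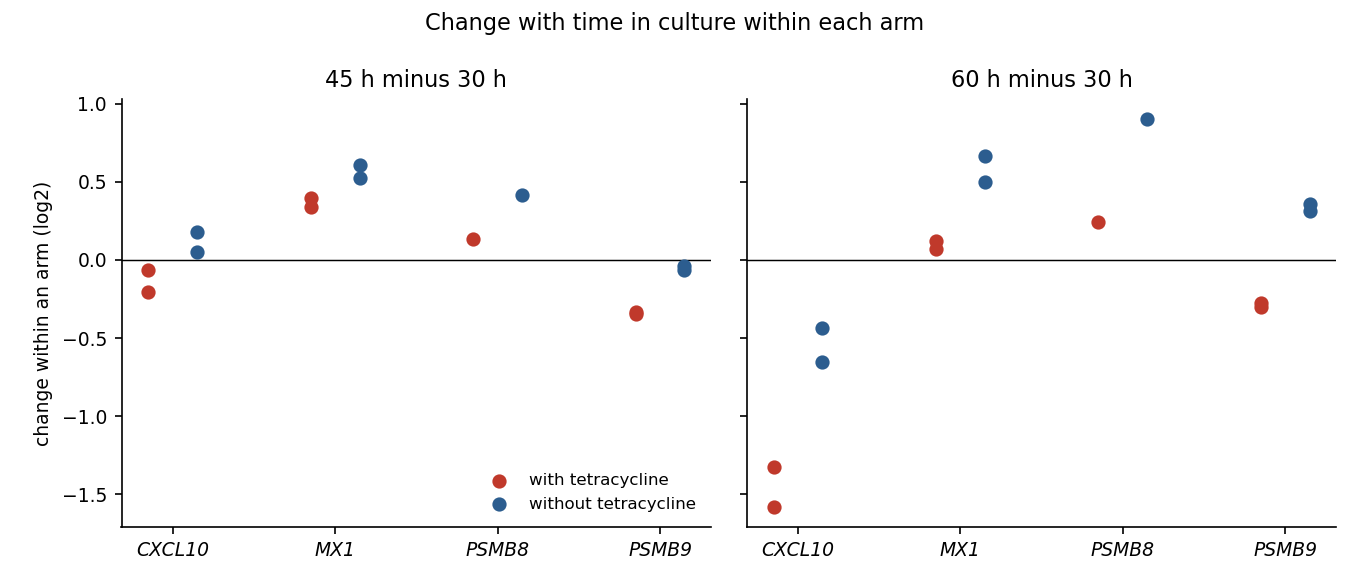
Change in level (log2) within an arm from 30 h to 45 h (left panel) and from 30 h to 60 h (right panel), 1 point for each probe, with tetracycline in red left of without tetracycline in blue. For every gene the red points lie below the blue ones, and at 60 h CXCL10 is below 0 in both arms while PSMB9 is below 0 with tetracycline and above 0 without it.

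Time in culture over both arms was tested with limma across all features, a contrast that did not enter the choice of genes. With 1 array per condition its error rests in part on how the arm difference varies over the times. That difference was in view when the genes were chosen, so their p-values are not independent of the choice. From 30 h to 60 h 8.17% of the 27581 features passed an adjusted p of 0.05, and none of the 4 genes did. At an unadjusted p under 0.05 stood 2 of them, CXCL10 and PSMB8, and 31.4% of all features. CXCL10 had a change of -1.01 ± 0.29 (SE, limma, adjusted p = 0.102), PSMB8 of 0.57 ± 0.18 (adjusted p = 0.115), MX1 of 0.31 ± 0.12 (adjusted p = 0.170) and PSMB9 of 0.041 ± 0.17 (adjusted p = 0.892). The sign was the same on both arms for CXCL10, MX1 and PSMB8. With the normexp correction CXCL10 passed, at -0.42 with a limma adjusted p of 0.0482. The 30 h and 60 h arrays lay on different slides, so that time and slide go together in this contrast. With the slide as a term 4.66% of features had an unadjusted limma p under 0.05, against 31.4% without that term. With any 1 of the 6 arrays left out, or with the slide as a term, no feature passed with limma, and 5694 to 8349 or 1285 had an unadjusted p under 0.05.

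The neighbours of the immunoproteasome genes are other genes of antigen processing. In the order of the RefSeq gene table, PSMB8 lies between TAP2 and TAP1, and PSMB9 between TAP1 and the MHC class II gene DLA-DMB. TAP1 and TAP2 encode the 2 chains of the transporter that carries peptides into the endoplasmic reticulum. TAP1 stood at 4.70, 4.29 and 3.99 at 30, 45 and 60 h with tetracycline, against 4.90, 4.89 and 4.68 without it, differences of -0.19, -0.60 and -0.68. TAP2 had differences of 0.023, -0.24 and -0.38, and DLA-DMB of 0.17, 0.10 and -0.19. At 30 h the differences of TAP2 and DLA-DMB were thus above 0, unlike those of TAP1, PSMB8 and PSMB9.

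Of the 7 tested genes of antigen processing and MHC class I, 4 were lower with tetracycline at all 3 times and 1 was higher, where 21.8% of all features were lower and 27.7% higher. Their median difference was -0.052 at 30 h, -0.24 at 45 h and -0.29 at 60 h. TAPBP, the chaperone tapasin that joins the peptide transporter to MHC class I, stood at -0.10, -0.39 and -0.57. The class I heavy chain gene DLA88 stood at -0.021, -0.24 and -0.29, and DLA-64 at -0.078, -0.14 and -0.18. Of the 3 probes of DLA-64 only the brightest, given here, was lower at all 3 times. The class I gene DLA-79 was at 0.70 at 60 h and near 0 before, and the chaperone CANX was the higher one, at 0.10, 0.14 and 0.21.

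The list of the constitutive proteasome, which holds cap and core subunits, had 28 genes, and 4 were measured. All 4 were higher with tetracycline at all 3 times, as were 27.7% of all features, with a median difference of 0.13, 0.15 and 0.29. With quantile normalization or normexp it was 3 of 4, without PSMB7. The ATPase PSMC1 of the regulatory cap stood at 0.30, 0.42 and 0.62, the core subunit PSMB3 at 0.076, 0.22 and 0.42, the ubiquitin receptor PSMD4 at 0.18, 0.083 and 0.16, and the trypsin-like core subunit PSMB7 at 0.079, 0.034 and 0.066. PSMB5 and PSMB6 had no named probe, so PSMB8 and PSMB9 were not compared with the subunits they replace. The 4 measured genes are not the counterparts of PSMB8 and PSMB9.

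**Figure D4:**
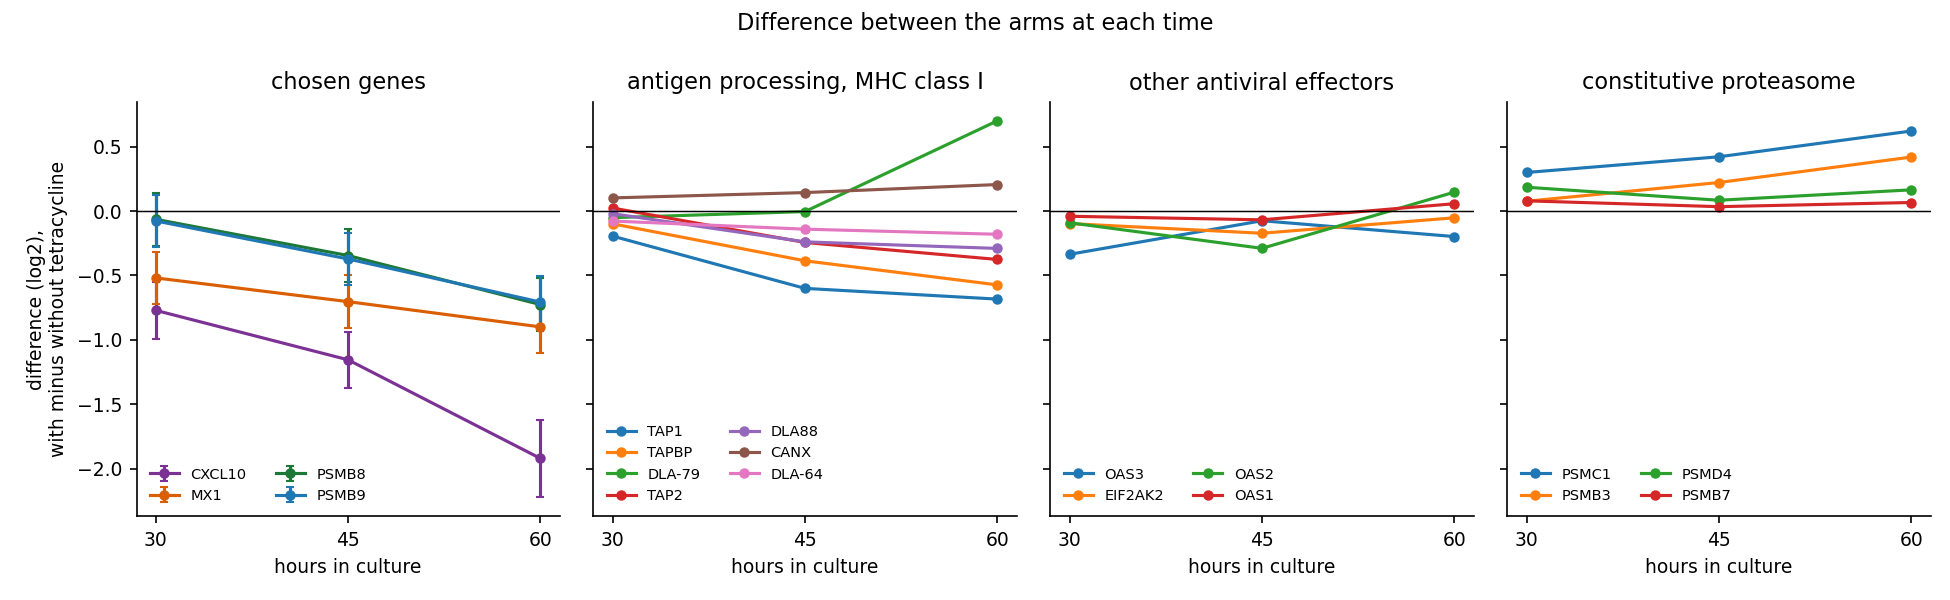
Difference between the arms (log2, with minus without tetracycline) against hours in culture for the 4 chosen genes with the program's error of a difference, and for genes of 3 lists. The chosen genes and most antigen processing genes lie below 0 by 60 h. Of the 4 antiviral effectors shown, OAS3 and EIF2AK2 lie below 0 at every time, and OAS1 and OAS2 lie above 0 only at 60 h. On the list of the constitutive proteasome PSMC1, PSMB3 and PSMD4 lie above 0, with PSMB7 close to it.

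Other antiviral effectors had smaller mean differences than MX1. Of 5 tested, 3 were lower at all 3 times (2 with median scaling, 4 with normexp) and none was higher, against 21.8% and 27.7% of all features, with medians of -0.098, -0.17 and -0.053. The oligoadenylate synthetase genes OAS3 and OAS2 had mean differences of -0.20 and -0.078, and the double-stranded RNA kinase EIF2AK2 of -0.11, with OAS2 at 0.15 at 60 h. OAS1 had a mean difference of -0.018. CXCR3, the receptor of CXCL10, was dim and had differences of -0.19, -0.056 and 0.12.

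Upstream of these genes few members were measured. The interferon genes IFNB1 and IFNG were well above background on no array. IFNK, an interferon of epithelial cells, was above background on all of them, at -1.62, -1.35 and -0.088 with tetracycline, against -1.16, -1.57 and -2.18 without it. Its difference was -0.45 at 30 h, 0.23 at 45 h and 2.09 at 60 h. IFNK had 1 probe, and each of these values rests on 1 pair of arrays. Any link to the 4 chosen genes was not tested. IFNA7 stood at -0.15, 0.16 and -0.10.

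The receptor-associated kinase JAK1 stood at 0.035, 0.24 and 0.41, higher each time. STAT2, IRF1 and IRF9 had no named probe. The sensors TLR9 and TLR7 and the adaptor MAVS had mean differences of 0.18, 0.093 and 0.12, and the feedback inhibitors SOCS3 and IL18BP of -0.018 and 0.044, none of these 5 with the same sign at all 3 times. MFN2, a mitochondrial GTPase of the dynamin family, to which MX1 belongs, had a mean of 0.046. Among 8 tested MHC class II genes 1 was lower and 1 higher throughout. The lower one was CTSS, the lysosomal protease that trims the invariant chain, at -0.072, -0.64 and -1.04, and the higher one DLA-DQA1, at 0.11, 0.23 and 0.065. DLA-DMA and DLA-DQB1 had mean differences of 0.20 and -0.14.

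Over all 34 tested genes of these lists 8 were lower at all 3 times, or 23.5%, near the 21.8% of all features. Over the 13 of antiviral effectors, the chemokine receptor and antigen processing it was 7, or 53.8%. Genes were counted by their brightest probe, and DLA-64 was lower throughout on that probe only. In the test for time in culture 2 of the 34 passed, where 8.17% of all features did. CANX fell by 0.53 ± 0.083 (SE, limma, adjusted p = 0.0415) and DLA-DQA1 by 0.72 ± 0.088 (adjusted p = 0.0365).

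The 4 genes were not alike on every array. Over the 6 arrays, which share the arms, the times and the slides, Pearson's r was 0.80 for MX1 with PSMB8, 0.70 for PSMB8 with PSMB9, 0.66 for CXCL10 with MX1, 0.66 for MX1 with PSMB9 and 0.60 for CXCL10 with PSMB9. It was lowest, at 0.20, for CXCL10 with PSMB8. The mean of the 4 genes, each less its own average, stood at -0.21, -0.23 and -0.59 with tetracycline at 30, 45 and 60 h, against 0.14, 0.41 and 0.47 without it.

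Among 144 other named genes above background on all arrays with a range of at least 1 on the log2 scale, 5 ran most like this mean by Pearson's r over the 6 arrays. These were ID3, an inhibitor of differentiation factors (0.994), the growth factor receptor FGFR2 (0.969), the lipase-related gene PNLIPRP1 (0.966), the carbonic anhydrase CA2 (0.959) and the chemokine CCL20 (0.943). ID3 also matched in size, at -0.058, -0.14 and -0.44 with tetracycline, against 0.19, 0.52 and 0.63 without it. CCL20 was already far apart at 30 h, at -2.75, -3.42 and -3.73 with tetracycline, against -0.74, -0.61 and -0.72 without it. With Spearman's rank correlation 3 of these 5 genes stayed among the first 5.

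**Figure D5:**
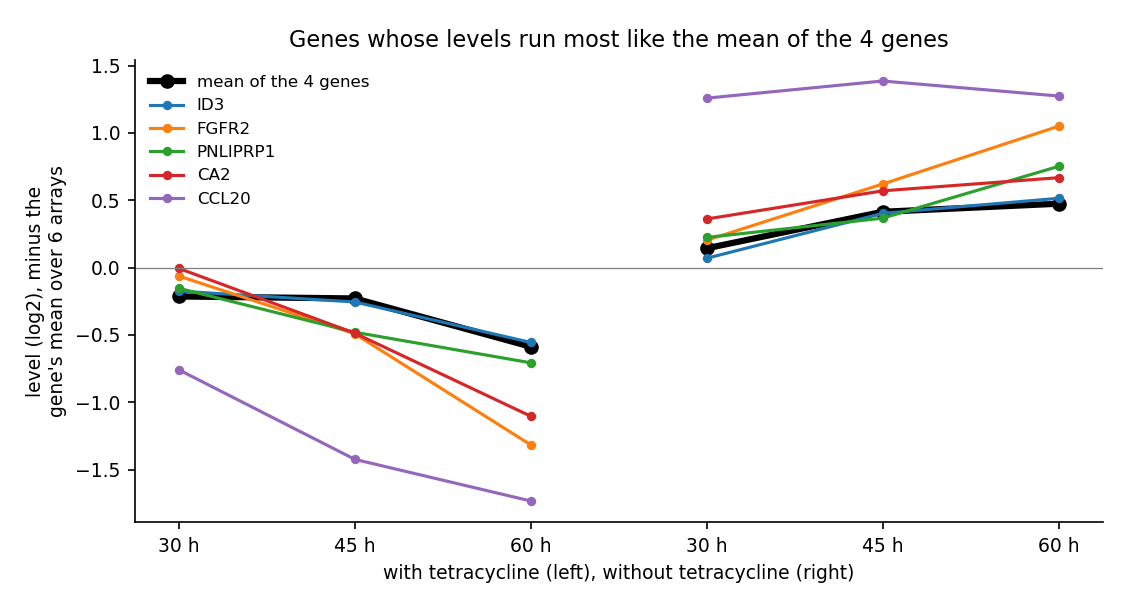
Level (log2, minus the gene's mean over the 6 arrays) of the mean of the 4 genes in black and of the 5 most similar named genes in colour, with the 3 arrays with tetracycline left of the 3 without it. ID3 runs along the black line, while CCL20 lies further from 0 on every array.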

How the data were processed

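Linear spot intensity in the 6 deposited files came from Agilent Feature Extraction 11.5.1.1, per the submitters' processing notes and the file headers. Per the file headers the program detrended this intensity, with no step that normalizes arrays to each other recorded, and flags for spots were deposited with it. The deposited series matrix holds the same intensity times 1 factor per array, 2.30 to 2.62, with no centring found and with column medians of 150.9 to 171.5; the sources used here do not give the origin of this factor. Spots flagged as outliers were left out, spots of each of 43603 probes averaged, 19 probes with no spot left dropped, and log2 values taken minus each array's 75th percentile. Probes took their gene from an unversioned match of transcript accessions to a RefSeq table of another assembly, used for names and gene order only, which named 2325 probes. No sequence or genome was used here. A feature was tested if all 3 arrays of an arm had it well above background, a gene by its brightest probe, with limma 3.58.1 in R 4.3.3 (time as a 3-level factor plus arm, 2 residual degrees of freedom, Benjamini-Hochberg adjustment, two-sided). The fit was tested on simulated data. With 1 array per condition, errors measure spread over times or arms or the program's error of a spot, and the number of arrays limits precision. The genes, lists and rules were chosen with earlier results of these data known. Named were the chosen genes, in each list up to 4 genes by size of mean difference (DLA88, DLA-64, CANX, DLA-DMB, OAS1, the time result of DLA-DQA1, COL1A1 and CLDN2 were added after their values were seen), list genes passing the test for time, and the 5 genes most alike. A gene that this rule names is not reported here. Alternatives were other scalings, normexp on median spot signal, the series matrix, other detection filters, probe means, left-out arrays, the slide, the prior and the model terms.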

Additional observations from a re-analysis of the deposited data

How the results depend on the processing

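The direction of the difference between the arms was the same for CXCL10, MX1, PSMB8 and PSMB9 under every alternative run. All 4 stayed lower at each time included. Some alternatives could not change this. The series matrix differs by 1 factor per array, which the scaling removes, and all 7 probes pass every detection filter. Leaving out a pair could not change the direction either, since every difference of the 4 genes was below 0. The slide term gave the same means as leaving out the 45 h pair. Only CXCL10 under normexp moved by more than its spread, the SD over the times for a mean and the program's error at a single time. A mean without a pair, and so that with the slide term, cannot move by more than this SD. Means without a pair of arrays lay between -1.54 and -0.96 for CXCL10, -0.80 and -0.61 for MX1, -0.54 and -0.20 for PSMB8 and -0.54 and -0.22 for PSMB9, the smallest being those without the 60 h pair. No paired analysis by replicate number was possible because the labels carry none. The pairs share a time, and in this balanced design dropping the time term cannot change the means. The number of pathway genes lower at all times went from 7 to 12, the highest without a pair. Without a pair a gene had to be lower at fewer times, so more could pass. The share of all features was not counted under these alternatives, so nothing is read from these counts. The share of features past 2-fold in either direction was 3.54% at 30 h, 4.99% at 45 h and 7.63% at 60 h, and with detection required on both arrays 0.803%, 1.98% and 4.42%. For time in culture 2254 features passed in the fit as reported, 3568 with normexp, 3775 with a trended and robust prior and 5893 at an adjusted p of 0.10. The fit with no detection filter was run on 42695 features. With limma 0 passed with no detection filter, with the slide as a term, with no arm term or at an adjusted p of 0.01 (7728, 1285, 6096 and 8674 at an unadjusted p under 0.05), and 0 without any single array (5694 to 8349 unadjusted), where 1 residual degree of freedom is left. The change of PSMB9 with time turned to -0.037 with median scaling, and lay between -0.20 and 0.28 without single arrays. The cause was not tested. With Spearman's correlation 3 of the 5 most alike genes were shared. The slide term gives no value at a single time.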

Other observations

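OASL, an oligoadenylate synthetase-like gene, was well above background on 1 array with tetracycline and on 2 without it, and so was not tested. At 45 h, where both arrays measured it, its difference was -0.24. At 60 h it was at least 1.45-fold lower with tetracycline, where it was not well above background.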
